A study of Homo sapiens with 6 samples.

Results

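The genes of the TAL1 and LMO leukaemia transcription circuit were followed in RPMI-8402, a human line of T cell acute lymphoblastic leukaemia (T-ALL). They were taken by gene name from the authors' deposited comparison table and joined by gene identifier to the read counts: TAL1, LMO1, LMO2, GATA3, RUNX1, MYB, TCF3, TCF12, LDB1 and ARID5B, 10 of 63677 genes. Of these, 9 had enough reads to be tested among 15492 genes, and LMO2 did not. All samples carry the genotype name MYC_KO and stably express Cas9, the nuclease that cuts where a guide RNA directs it. The 3 DMSO samples received the solvent alone, and the 3 doxycycline samples received the drug that switches on guides against MYC, both for 72 hours before total RNA was taken. Doxycycline without guides, and guides against no gene, are not among the groups analysed here, so effects of the drug, of cutting and of the MYC guides cannot be told apart. Whether the Cas9 cells were 1 clone or a pool, and whether replicates were separate cultures, is not stated. The p-values therefore set group differences against the scatter of these samples, and that scatter may be technical.

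TAL1 is a basic helix-loop-helix factor that is silent in normal T cells past their early stages and switched on in many T cell leukaemias. It binds DNA as a pair with an E protein, the product of TCF3 or TCF12. An LMO protein, LMO1 or LMO2, has no DNA binding of its own and bridges that pair to LDB1, a scaffold, and through it to GATA factors. In T-ALL the complex is described as sharing enhancers with GATA3, RUNX1 and MYB, each of which also binds near the genes of the others, and as driving ARID5B, a chromatin-associated factor that in turn has been described as an activator of MYC. RPMI-8402 is described as carrying a small deletion that places TAL1 under the promoter of its neighbour STIL, and a translocation that brings LMO1 under control of a T cell receptor locus. Those rearrangements were not examined here.

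The start-site windows of the circuit genes are shown because the factors bind short words in DNA, and because TAL1 in this line is described as driven from a neighbouring promoter. RefSeq windows on GRCh38.p14, from 250 bases before to 50 after each start, were matched by symbol for 9 of the 10 genes, 20 windows in all. LMO2 had no entry. Each sequence is read 5′ to 3′ on the gene's own strand, and capitals mark matches on either strand to 1 of 6 words. CACGTG is the E box that MYC reads with its partner MAX. CAGCTG is an E box that pairs of E proteins read, and the E box described for TAL1 with an E protein is CAGATG. The word for GATA factors is AGATAA, the word for RUNX factors is TGTGGT, and the word for MYB, in which N is any base, is TAACNG. The windows of TAL1 at chr1:47232286-47232585 (first) and chr1:47231666-47231965 (second), of STIL at chr1:47314098-47314397 and of LMO1 at chr11:8268738-8269037 lie on the minus strand. Those of GATA3 (number 3 of its 6) at chr10:8050986-8051285 and of TCF12 (number 1 of its 5) at chr15:56917840-56918139 lie on the plus strand.
TAL1 first: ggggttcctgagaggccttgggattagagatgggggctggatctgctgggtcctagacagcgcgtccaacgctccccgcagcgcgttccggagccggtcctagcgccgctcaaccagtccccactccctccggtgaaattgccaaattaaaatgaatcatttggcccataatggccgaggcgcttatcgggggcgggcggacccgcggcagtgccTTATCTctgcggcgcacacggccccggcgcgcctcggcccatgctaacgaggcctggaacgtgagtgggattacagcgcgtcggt
TAL1 second: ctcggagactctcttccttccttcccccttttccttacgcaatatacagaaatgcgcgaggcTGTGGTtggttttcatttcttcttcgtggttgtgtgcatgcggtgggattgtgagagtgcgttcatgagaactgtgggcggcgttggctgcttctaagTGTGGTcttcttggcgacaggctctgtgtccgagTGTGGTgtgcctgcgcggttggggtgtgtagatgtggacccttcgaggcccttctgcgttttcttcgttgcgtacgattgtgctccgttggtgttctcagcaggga
STIL: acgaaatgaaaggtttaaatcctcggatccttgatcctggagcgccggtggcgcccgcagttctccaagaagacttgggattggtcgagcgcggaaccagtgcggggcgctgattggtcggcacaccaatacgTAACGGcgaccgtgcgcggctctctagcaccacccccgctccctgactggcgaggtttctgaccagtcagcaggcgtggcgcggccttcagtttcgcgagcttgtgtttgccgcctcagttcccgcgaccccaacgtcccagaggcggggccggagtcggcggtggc
LMO1: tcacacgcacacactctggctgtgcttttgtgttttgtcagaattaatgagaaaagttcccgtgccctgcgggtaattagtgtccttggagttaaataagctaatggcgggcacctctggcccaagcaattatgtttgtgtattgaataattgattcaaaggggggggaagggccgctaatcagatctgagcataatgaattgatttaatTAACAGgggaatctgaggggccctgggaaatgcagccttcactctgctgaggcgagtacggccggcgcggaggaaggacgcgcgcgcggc
GATA3 number 3: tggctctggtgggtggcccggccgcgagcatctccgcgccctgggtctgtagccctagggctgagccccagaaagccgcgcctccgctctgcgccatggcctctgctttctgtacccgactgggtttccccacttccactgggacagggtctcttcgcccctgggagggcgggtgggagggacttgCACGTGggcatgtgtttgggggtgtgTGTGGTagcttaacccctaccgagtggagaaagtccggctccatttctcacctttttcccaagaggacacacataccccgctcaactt
TCF12 number 1: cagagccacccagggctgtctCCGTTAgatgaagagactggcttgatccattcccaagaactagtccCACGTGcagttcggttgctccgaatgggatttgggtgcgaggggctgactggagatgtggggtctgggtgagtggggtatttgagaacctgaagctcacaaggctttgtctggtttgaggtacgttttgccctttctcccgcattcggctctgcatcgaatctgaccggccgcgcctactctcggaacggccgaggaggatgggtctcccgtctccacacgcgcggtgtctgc

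The second TAL1 window held the RUNX word 3 times, starting 188, 90 and 56 bases before the start site. The first TAL1 window held the GATA word once, on the opposite strand as TTATCT, starting 35 bases before the start. The LMO1 window held the MYB word 40 bases before its start as TAACAG, and the STIL window held it 117 bases before as TAACGG. The printed GATA3 window held both the MYC E box, at 64 bases before the start, and the RUNX word, at 38, and the printed TCF12 window held the MYC E box and the MYB word. Among all 35116 RefSeq windows of that length, 7.26% held CACGTG, 17.9% CAGCTG, 14.7% CAGATG, 10.3% AGATAA, 13.1% TGTGGT and 20.8% TAACNG. Of the 20 circuit windows, 2 held CACGTG, 1 CAGCTG, 0 CAGATG, 1 AGATAA, 2 TGTGGT and 3 TAACNG. The first of these words and the second read the same on both strands, and no pair of matches overlapped within the printed windows. The windows of RUNX1, MYB, TCF3, LDB1 and ARID5B held none of the 6 words, which says only that these letters are not in these windows. A match describes the sequence and is not a binding site, and no binding was measured.

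Library totals ran from 23121255 to 26214598 counts, and 3 counts corresponded to 0.112 to 0.131 CPM, the level used throughout: counts relative to the effective total of their library. MYC, the targeted gene, stood at 409, 422 and 407 CPM in DMSO and at 459, 431 and 431 CPM in doxycycline, so its transcript was not lower. Its groups did not overlap, and it was not called with TMM scaling (0.09, edgeR adjusted p = 0.160) but passed as higher with upper-quartile (0.14, 0.0357) and library-size scaling (0.14, 0.0281). These counts do not show whether MYC was cut, and neither the cut nor MYC protein was examined here. Of the 12 T lineage markers, those highest were CD3E at 976 CPM, LCK at 624 CPM and CD5 at 233 CPM in DMSO, while CD4 and CD8A were at 0.803 and 0.181 CPM. Summed B lineage markers (7 genes) were 12.2 to 13.4 CPM in DMSO and 17.0 to 18.1 CPM in doxycycline, summed myeloid markers (7 genes) 0.909 to 1.19 and 1.64 to 1.97 CPM, and summed erythroid markers (9 genes) 21.4 to 25.2 and 23.3 to 25.3 CPM, nearly all from the receptor gene EPOR. MS4A1, ELANE, CEBPA, CD33, HBB, HBA2 and HBG1 were at 0 in all 6 samples, and the part of such signal in the changes below was not tested. Replicates of a group differed by more than sampling noise (chi-square per degree of freedom 2.74 to 7.13). DMSO replicate 2 and doxycycline replicate 1 deviated from their group means in a like way across 10864 genes (Pearson r = 0.32, a description across genes). That r was the highest of the pairs between groups. DMSO replicate 3 had 0.242 with doxycycline replicate 2 and -0.285 with doxycycline replicate 1. The circuit is also given without DMSO replicate 2 and doxycycline replicate 1 below.

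Per length, the circuit genes differed widely in level, with LMO1 at the top and TAL1 and ARID5B at the bottom of those tested. Levels in this paragraph are CPM per kilobase of a gene's merged exons, in DMSO, as mean ± SD of 3 samples. LMO1 was highest at 157 ± 3.39, followed by MYB at 145 ± 3.23, TCF3 at 129 ± 5.23 and LDB1 at 128 ± 3.17. RUNX1 stood at 42.3 ± 1.58 and GATA3 at 38.6 ± 1.40, TCF12 at 14.7 ± 0.334, TAL1 at 10.9 ± 0.442 and ARID5B at 9.43 ± 0.789. TCF3 and LDB1 were the sole neighbours in that order whose samples overlapped in DMSO. LMO1, the bridging protein, thus had a transcript level per length well above that of TAL1, and TCF3 was the more abundant E protein gene, 8.74 ± 0.492 times TCF12 per length. LMO2 was at the limit of detection, with 1, 0 and 0 counts in DMSO and 1, 4 and 0 in doxycycline, so LMO1 was the LMO gene of the circuit with a measurable level. By the longest transcript in place of merged exons, MYB (217) lay above LMO1 (207), so the order at the top depends on the length used. RUNX1 (90.5) then also lay well above GATA3 (42.5), unlike with merged exons.

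**Figure D1:**
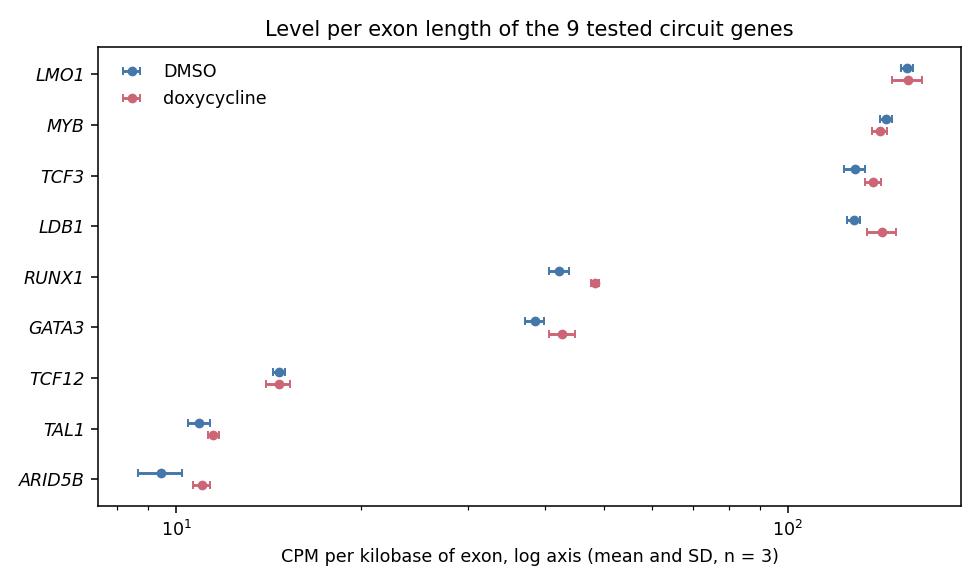
Level of the 9 tested circuit genes in CPM per kilobase of merged exons, on a log axis, with points for the mean and whiskers for the SD of 3 DMSO (blue) or 3 doxycycline (red) samples. LMO1, MYB, TCF3 and LDB1 lie above 100 in both groups, and TAL1 and ARID5B lie lowest, near 10.

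In doxycycline the order of the top genes was less separate. LMO1 stood at 157 ± 8.70, LDB1 at 142 ± 7.67, MYB at 141 ± 3.87 and TCF3 at 138 ± 4.31, and each overlapped its neighbour in the order. At the low end TAL1, at 11.5 ± 0.238, and ARID5B also overlapped there.

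After 72 hours of doxycycline, 4 of the 9 tested circuit genes had risen slightly, 0 had fallen and 5 were not called, at an adjusted p under 0.05 in edgeR's quasi-likelihood test over all genes. ARID5B, RUNX1, LDB1 and GATA3 rose by 0.15 to 0.22 on the log2 scale. TAL1, LMO1, MYB, TCF3 and TCF12 were not called. In bulk RNA such as this, fewer cells of a kind and less RNA per cell cannot be told apart. Over all tested genes, 13.8% were called higher and 15.5% lower, 29.3% in all, and among the 3794 genes at or above the level of the lowest tested circuit gene 14.3% were called higher and 42.3% either way. The 4 calls of 9 in either direction are thus near the share among genes of such levels. All 4 were rises, but LDB1 and GATA3 lost their calls with the correction for GC content and length described below. The genes were also chosen with earlier results of these data known. The median log2 fold change of the 9 was 0.10, against -0.0007 over all tested genes. Groups did not overlap, with every doxycycline sample above every DMSO sample, for 5 of the 9, the called 4 and TCF3. Of all tested genes 20.7% were separate in that direction and 41.7% in either. DESeq2 run on the same counts also called these 4 as higher, along with 9.64% of the genes it tested. Without DMSO replicate 2 and doxycycline replicate 1, RUNX1 was the 1 circuit gene still called (0.17, edgeR adjusted p = 0.0264), with LDB1 at 0.11 (0.108), GATA3 at 0.11 (0.152) and ARID5B at 0.13 (0.0819). That fit called 3536 of 15647 genes, against 4545 of 15492 with all 6 samples. In the authors' deposited table the same 4 genes as in all 6 samples had an adjusted p-value under 0.05, where 9.79% of genes with one were higher at that threshold.

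**Figure D2:**
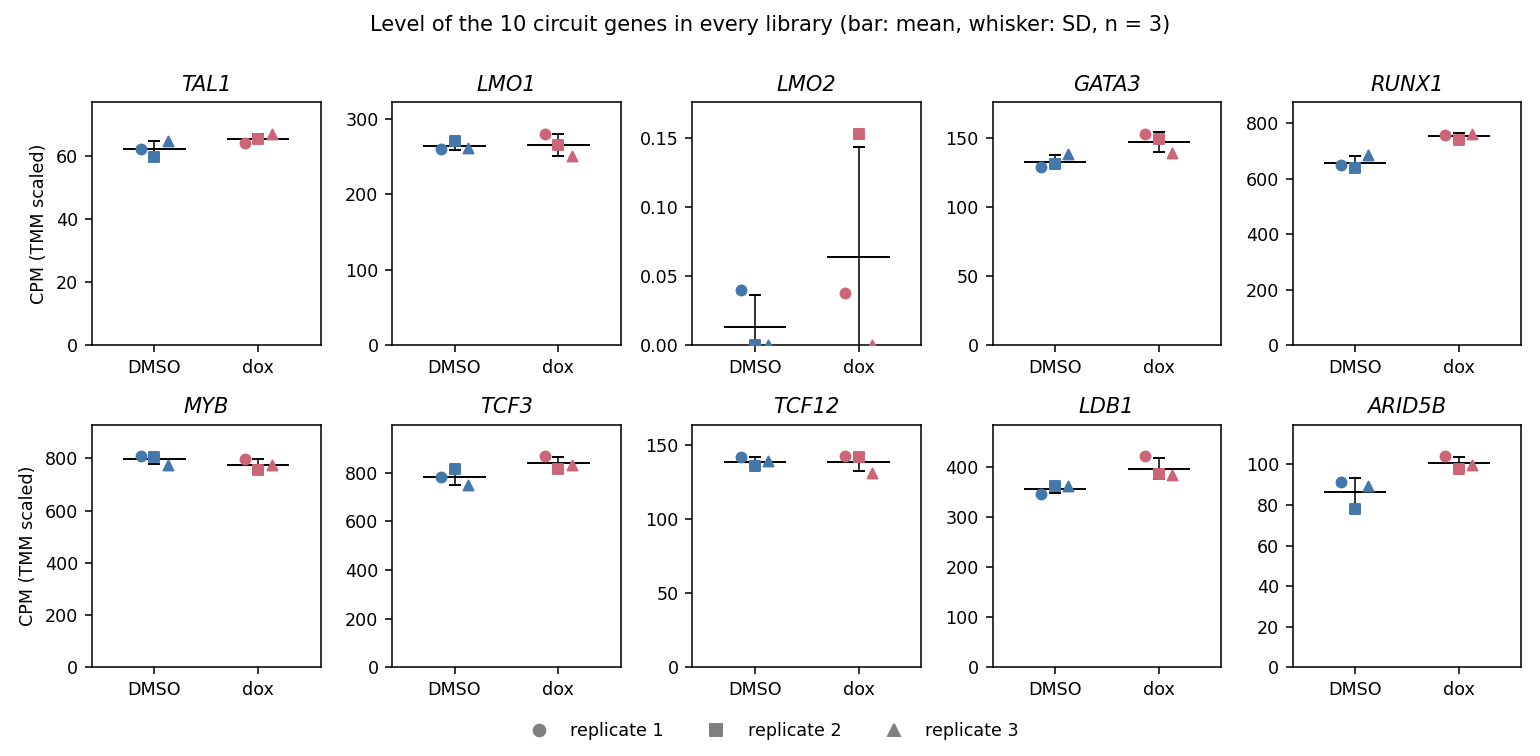
CPM with TMM scaling, the normalisation that trims extreme genes, of each circuit gene in every sample, with DMSO in blue and doxycycline (dox) in red, each axis starting at 0, a bar for the mean and a whisker for the SD of 3 samples. The 3 red points of RUNX1, ARID5B, LDB1, GATA3 and TCF3 lie above all 3 blue points, and those of TAL1, LMO1, MYB and TCF12 overlap the blue ones. LMO2 stays at or below 0.152 CPM.

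TAL1 (ENSG00000162367, chromosome 1, minus strand), the factor at the centre of the circuit, barely moved. It was 62.1, 59.5 and 64.6 CPM in DMSO replicates 1, 2 and 3, and 64.2, 65.2 and 66.9 CPM in doxycycline replicates 1, 2 and 3. The lowest doxycycline sample lay just under the highest DMSO sample. Means were 62.1 ± 2.52 and 65.4 ± 1.36 CPM, a log2 fold change of 0.08 (SE 0.054) and a 95% interval of -0.03 to 0.19 (edgeR adjusted p = 0.302). An antisense gene, AL135960.1, overlaps 14.8% of the TAL1 exon bases, and its own counts came to 3.68% of those of TAL1, so an admixture cannot be separated where counting ignored strand. STIL, a centrosome protein gene and the source of the promoter described above, was 41.5 ± 1.36 CPM in DMSO and 41.4 ± 1.21 CPM in doxycycline (log2 fold change -0.01, edgeR adjusted p = 0.957). Per length, the ratio of STIL to TAL1 was 0.527, 0.526 and 0.517 in the DMSO samples and 0.512, 0.504 and 0.467 in the doxycycline samples. That ratio was lower in every doxycycline sample, by an amount set largely by doxycycline replicate 3. With a correction for GC content and length the order turned, STIL standing at 0.072 and TAL1 at 0.003 on the log2 scale.

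LMO1 (ENSG00000166407, chromosome 11, minus strand), the bridge between TAL1 pairs and LDB1, had the same mean in both groups. Its samples were 261, 271 and 262 CPM in DMSO and 280.1, 265 and 251 CPM in doxycycline. Replicates 1 and 3 of the doxycycline group were the highest and the lowest of all 6. Means were 265 ± 5.72 and 265 ± 14.7 CPM, with a 95% interval for the log2 fold change of -0.10 to 0.11 around 0.00 (edgeR adjusted p = 0.979). LDB1 (ENSG00000198728, chromosome 10, minus strand), the scaffold that LMO proteins bind, rose. It was 347, 361 and 363 CPM in DMSO and 422, 386 and 384 CPM in doxycycline, with doxycycline replicate 1 standing above the other 2. The means were 357 ± 8.85 and 397 ± 21.4 CPM, a log2 fold change of 0.15 (SE 0.051, edgeR adjusted p = 0.0244). LDB1 no longer passed if DMSO replicate 1 was dropped (0.13, edgeR adjusted p = 0.109), if doxycycline replicate 1 was dropped (0.11, edgeR adjusted p = 0.160) and with a correction for GC content and length (0.07, edgeR adjusted p = 0.258). Its range of adjusted p over the 15 alternatives was 0.00364 to 0.283.

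Neither E protein gene was called with TMM scaling. Per length, TCF3 over TCF12 was 8.74 ± 0.492 in DMSO and 9.39 ± 0.461 in doxycycline, and the groups overlapped. TCF3 (ENSG00000071564, chromosome 19, minus strand), which encodes E2A, was 783, 813 and 749 CPM in DMSO and 867, 816 and 832 CPM in doxycycline. Each doxycycline sample was above each DMSO sample, yet doxycycline replicate 2 cleared DMSO replicate 2 by under 3 CPM. The means of 782 ± 31.8 and 838 ± 26.2 CPM gave a log2 fold change of 0.10 (SE 0.051), which did not pass (edgeR adjusted p = 0.141). Scaling decides that call: it passed as higher with upper-quartile scaling (0.15, edgeR adjusted p = 0.0329) and under plain library-size scaling (0.14, edgeR adjusted p = 0.0232), and the sign turned with the GC and length correction (-0.07, edgeR adjusted p = 0.226). TCF12 (ENSG00000140262, chromosome 15, plus strand), which encodes HEB, was 142, 136 and 139 CPM in DMSO and 143, 142 and 132 CPM in doxycycline. Its groups overlapped fully, with means of 139 ± 3.16 and 139 ± 6.30 CPM and a 95% interval of -0.11 to 0.10 (edgeR adjusted p = 0.982).

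RUNX1 (ENSG00000159216, chromosome 21, minus strand), the runt-domain factor of the circuit, was higher in every doxycycline sample than in any DMSO sample. It was 649, 639.9 and 686 CPM in DMSO and 759, 739.9 and 762 CPM in doxycycline. The lowest doxycycline sample stood above the highest DMSO sample, and the doxycycline samples lay closer together. Means were 658 ± 24.6 and 753 ± 11.7 CPM, a log2 fold change of 0.19 (SE 0.050) and a 95% interval of 0.09 to 0.30 (edgeR adjusted p = 0.00434). RUNX1 was the sole circuit gene called under each of the 15 alternatives, with log2 fold changes of 0.16 to 0.24 and adjusted p of 2.76e-04 to 0.0309. In the authors' deposited table its log2 fold change was 0.18 with an adjusted p-value of 2.73e-04.

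GATA3 (ENSG00000107485, chromosome 10, plus strand), a zinc finger factor needed for T cell development, was 129, 131 and 138 CPM in DMSO and 153, 149 and 139 CPM in doxycycline. The groups did not overlap, but doxycycline replicate 3 lay close to DMSO replicate 3. Means of 133 ± 4.82 and 147 ± 6.93 CPM gave a log2 fold change of 0.15 (SE 0.051, edgeR adjusted p = 0.0299). That call was the least stable of the 4, held in 6 of 15 alternatives with adjusted p from 0.00528 to 0.152. Dropping any of 4 libraries ended it: DMSO replicate 1 (0.13, edgeR adjusted p = 0.133), DMSO replicate 2 (0.14, 0.0546), doxycycline replicate 1 (0.12, 0.133) or doxycycline replicate 2 (0.14, 0.103). It was also lost when low counts were not filtered (0.13, edgeR adjusted p = 0.0800) and with the GC and length correction (0.12, 0.0612).

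MYB (ENSG00000118513, chromosome 6, plus strand), a factor that binds TAL1 enhancers in T-ALL, was 808, 805 and 776 CPM in DMSO and 798, 756 and 775 CPM in doxycycline. The groups overlapped, with means of 796 ± 17.7 and 776 ± 21.3 CPM. The log2 fold change was -0.04 with a 95% interval of -0.14 to 0.07 (edgeR adjusted p = 0.619), and its sign turned with upper-quartile scaling (0.01) and library size alone (0.01). An antisense gene, MYB-AS1, had 0.124% as many counts as MYB.

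ARID5B (ENSG00000150347, chromosome 10, plus strand), described in T-ALL as a TAL1 target that acts upstream of MYC, had the largest change of the circuit. It was 91.3, 78.0 and 89.5 CPM in DMSO and 104, 97.9 and 99.7 CPM in doxycycline. All doxycycline samples were above all DMSO samples, and DMSO replicate 2 was well below its group. Means were 86.2 ± 7.22 and 101 ± 3.13 CPM, a log2 fold change of 0.22 (SE 0.057) and a 95% interval of 0.10 to 0.34 (edgeR adjusted p = 0.00482). The call held in 14 of 15 alternatives and failed in the fit lacking both DMSO replicate 2 and doxycycline replicate 1 (0.13, edgeR adjusted p = 0.0819), within a range of adjusted p from 9.33e-04 to 0.0819. With DMSO replicate 2 alone left out the value was 0.15 (edgeR adjusted p = 0.0332).

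**Figure D3:**
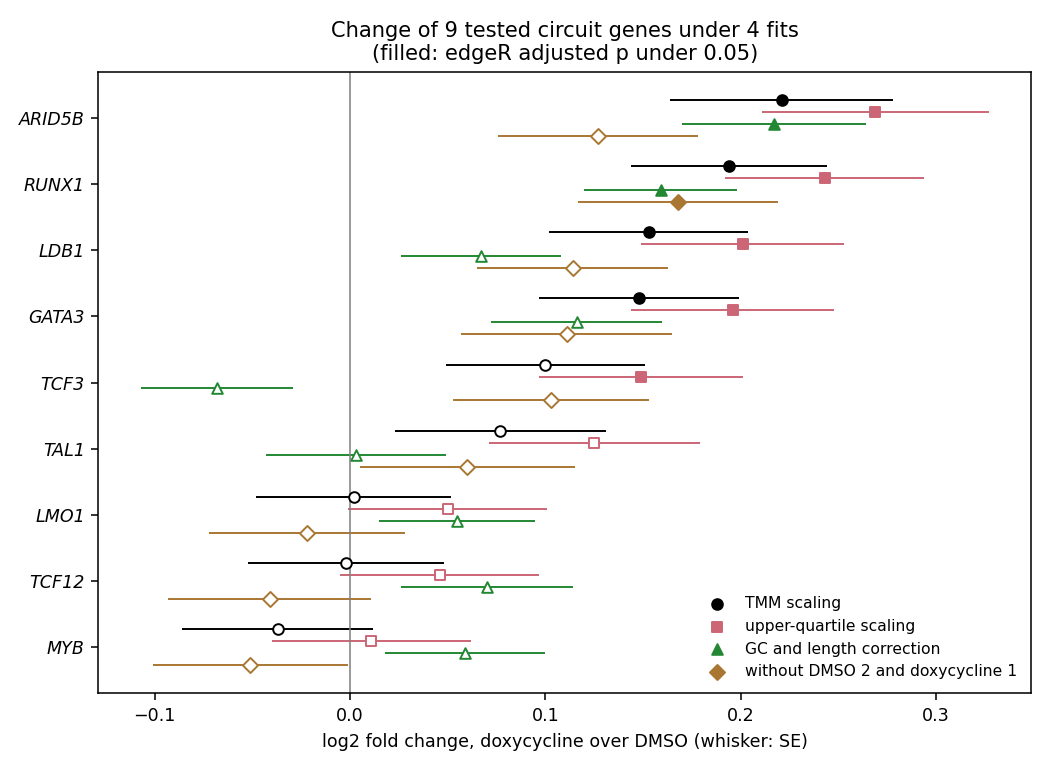
Log2 fold change of the 9 tested circuit genes, doxycycline over DMSO, with whiskers of 1 SE, under 4 fits: TMM scaling (black), upper-quartile scaling (red), GC and length correction (green) and without DMSO replicate 2 and doxycycline replicate 1 (brown). Filled symbols passed an edgeR adjusted p under 0.05. RUNX1 is filled in all 4, and the correction moves TCF3 from 0.10 to -0.07.

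Fold changes in these libraries followed the GC content of genes, so the circuit was read against that trend. The median log2 fold change of all genes ran from -0.13 in the lowest of 10 equal bins of GC content to 0.17 in the highest. RUNX1, at 47.1% GC, and ARID5B, at 44.2%, rose although the median of genes in their bins was -0.03 and -0.07. LDB1, at 59.7%, and TCF3, at 61.2%, lie in a bin whose median was 0.13, and TAL1, LMO1 and GATA3, at 53.2% to 54.5%, in one whose median was 0.04. With the correction, 2 of the 9 were called, RUNX1 (0.16, edgeR adjusted p = 0.00654) and ARID5B (0.22, edgeR adjusted p = 0.00239), both higher, and 22.1% of 15036 genes were called, 10.7% as higher. TAL1 then stood at 0.00 (edgeR adjusted p = 0.974), and the median of the 9 was 0.07. The correction fits length along with GC content, and their parts were not separated. LMO1 went from 0.002 without it to 0.055 with it, although its bin median was 0.04.

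**Figure D4:**
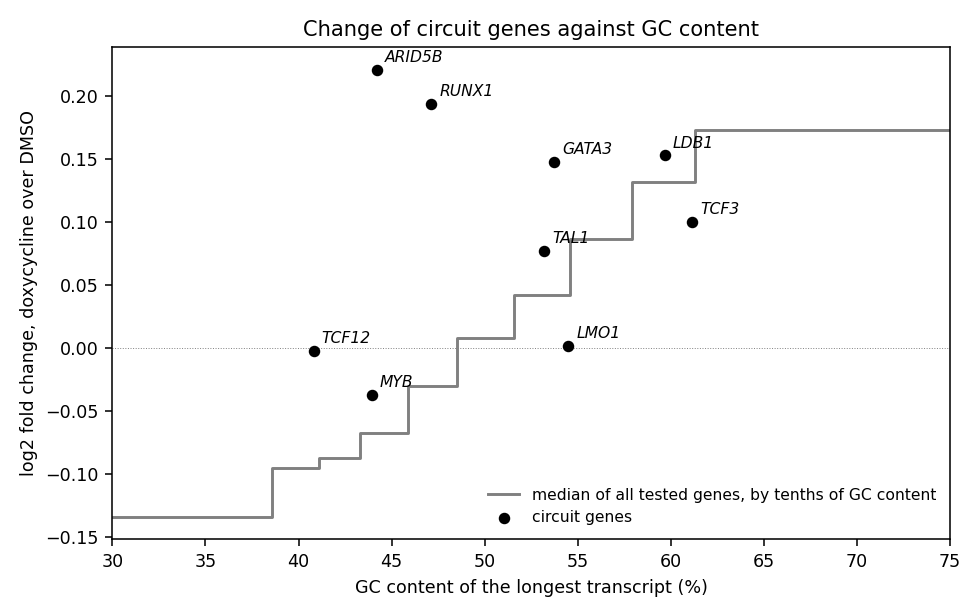
Log2 fold change, doxycycline over DMSO, of the 9 tested circuit genes (points) against the GC content of the longest transcript in percent, with the median of all tested genes in 10 equal bins of GC content as a grey step line. ARID5B and RUNX1 lie well above the line at their GC content, and LMO1 and TCF3 lie below it.

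The make-up of the circuit within a library needs no scaling between libraries, since it is each gene's percentage of the summed counts of the 10 genes. MYB made up 24.7, 24.4 and 23.7% in DMSO and 22.2, 22.1 and 22.5% in doxycycline, lower in every doxycycline sample. RUNX1 made up 19.8, 19.4 and 21.0% in DMSO and 21.1, 21.7 and 22.1% in doxycycline, higher in every one. LMO1 went the way of MYB, from 8.08 ± 0.140 to 7.62 ± 0.286%, while LDB1 went from 10.9 ± 0.262 to 11.4 ± 0.311% and ARID5B from 2.63 ± 0.231 to 2.89 ± 0.0182%, these 3 also without overlap. TAL1 kept to 1.89 ± 0.0846 and 1.88 ± 0.0812%, and GATA3, TCF3 and TCF12 overlapped between groups as well. Lack of overlap is common in these libraries, with 41.7% of all tested genes separate in CPM. The shares sum to a fixed total, so they are not independent of each other, and they were not tested. They are also not corrected for the GC trend above. With the GC and length correction MYB (0.059), LMO1 (0.055) and LDB1 (0.067) lay near the median of the 9 tested genes (0.067). RUNX1 (0.159) and ARID5B (0.217) lay above it.

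Ratios per length between members that work together were then compared within each sample. Lengths were those of merged exons, and the size of a ratio depends on that choice. RUNX1 over TAL1 was 3.88 ± 0.0539 in DMSO and 4.21 ± 0.0948 in doxycycline, without overlap. LMO1 over LDB1, the bridge over its scaffold, was 1.22 ± 0.0282 in DMSO and 1.10 ± 0.0294 in doxycycline, also without overlap, and ARID5B over TAL1 was 0.866 ± 0.0501 and 0.958 ± 0.0446. The ratio of the 2 E protein genes together to TAL1, on average 13.2 and 13.3, overlapped, as did GATA3 over TAL1, 3.55 ± 0.110 and 3.73 ± 0.251. In CPM, 41.7% of all tested genes separated the groups, so lack of overlap is common here. These ratios are descriptions of 3 samples a group with no test, and they are not corrected for GC content or length. With that correction the log2 fold changes of LMO1 (0.055) and LDB1 (0.067) lay close together, unlike in the fit without it. RUNX1 (0.159) and ARID5B (0.217) still stood above TAL1 (0.003).

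ID proteins, which lack a DNA-binding region and hold E proteins away from DNA, are further partners of TCF3 and TCF12, and all 3 that could be tested rose, where 13.8% of all tested genes were called higher. ID1 went from 4.44, 4.46 and 4.15 CPM to 7.59, 8.50 and 8.41 CPM, a log2 fold change of 0.91 (SE 0.111, edgeR adjusted p = 1.85e-06). ID2 went from 7.85, 7.56 and 6.16 CPM to 10.3 CPM in each doxycycline sample, a log2 fold change of 0.51 (SE 0.100, edgeR adjusted p = 4.34e-04). ID3, by far the most abundant of the family, went from 150.0, 165 and 141 CPM to 201, 181 and 174 CPM, a log2 fold change of 0.29 (SE 0.059, edgeR adjusted p = 7.32e-04). The groups were separate for each of these 3 genes, and each was called under all 15 alternatives, the GC and length correction included (0.91, 0.53 and 0.30). ID4 had 0, 3 and 0 counts in DMSO and 1, 1 and 1 in doxycycline and was not tested.

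Of 29 binding partners and relatives of the circuit proteins, 25 were tested, 5 rose, 4 fell and 16 were not called, with a median log2 fold change of 0.00. Over all tested genes 29.3% were called, and 42.3% of those at circuit levels, so the 9 calls of 25 do not set the list apart. The rises depend on scaling: 9 rose and 4 fell with upper-quartile scaling, 8 and 4 under plain library-size scaling, and 3 and 4 in DESeq2. CREBBP, the acetyltransferase coactivator CBP, rose from 197 ± 6.10 to 244 ± 6.68 CPM (log2 fold change 0.31, edgeR adjusted p = 4.53e-05). HDAC2, a histone deacetylase of corepressor complexes, fell from 300.2 ± 4.81 to 254 ± 8.86 CPM (-0.24, edgeR adjusted p = 5.67e-04), and CBFB, the subunit that stabilises RUNX proteins on DNA, fell from 98.5 ± 2.09 to 83.4 ± 4.83 CPM (-0.24, edgeR adjusted p = 0.00136). CBFB fell where RUNX1, its partner, rose, but CBFB was not called with the GC and length correction (-0.09, edgeR adjusted p = 0.123). The arginine methyltransferase gene PRMT1 and LMO4, an LMO relative, also fell, by 0.24 and 0.31 on the log2 scale (edgeR adjusted p = 0.00205 and 0.00210), though the LMO4 groups overlapped. GATA2 went from 148 ± 7.28 to 168 ± 3.37 CPM (0.18, edgeR adjusted p = 0.00703), and CBFA2T2, CBFA2T3 and RUNX2 were the remaining rises.

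With the GC and length correction 2 of the 25 partners were higher and 4 lower. FLI1 gained a call as higher (0.205, edgeR adjusted p = 0.0119) and SSBP4 as lower (-0.143, edgeR adjusted p = 0.015). CREBBP (0.09, edgeR adjusted p = 0.0828), CBFB (-0.09, 0.123), GATA2 (0.06, 0.263), CBFA2T2 (0.09, 0.104) and CBFA2T3 (0.20, 0.247) lost their calls there, and HDAC2 kept it (-0.21, 0.00281), as did PRMT1, LMO4 and RUNX2. GATA2 also failed when DMSO replicate 1 was dropped (0.15, edgeR adjusted p = 0.0602). CBFA2T3, at 4.79 CPM in DMSO, was lost without DMSO replicate 1 (0.31, 0.133), doxycycline replicate 1 (0.29, 0.137) or doxycycline replicate 3 (0.30, 0.131), and RUNX2, at 2.55 CPM, without DMSO replicate 1 (0.43, 0.0909), DMSO replicate 2 (0.47, 0.0556) or doxycycline replicate 1 (0.43, 0.0826). In DESeq2 on all 6 samples neither passed, CBFA2T3 at 0.36 (DESeq2 adjusted p = 0.121) and RUNX2 at 0.52 (DESeq2 adjusted p = 0.0754). LYL1, the closest relative of TAL1, was 253 ± 16.5 and 249 ± 17.5 CPM, and ERG, an ETS factor, was 381 ± 21.8 and 374 ± 20.7 CPM, neither called. TAL2 and GATA1 were under the test's filter, and LMO3 and LDB2 were at 0 in all 6 samples.

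Most genes described as TAL1 targets in T-ALL were not called. Of 19, among them the circuit genes ARID5B, GATA3, RUNX1 and MYB, 17 were tested, 5 rose, 1 fell and 11 were not called, with a median of 0.08. The 6 calls of 17 are near the 29.3% of all tested genes, and the rises numbered 7 with upper-quartile and 8 with library-size scaling. With the GC and length correction 4 were higher and 2 lower, TRAF3 gaining a call as lower (-0.18, edgeR adjusted p = 0.00553). Of the 5 rises 3 are circuit genes already described, and the other two are EGFL7 and HHEX. EGFL7, which encodes a secreted vascular factor, rose from 11.3 ± 1.08 to 15.0 ± 0.557 CPM (0.41, edgeR adjusted p = 7.49e-04), and by less with the GC and length correction (0.25, edgeR adjusted p = 0.0211). HHEX, a homeobox gene of blood progenitors, went from 199 ± 9.61 to 221 ± 4.64 CPM (0.15, edgeR adjusted p = 0.0237), a call lost without DMSO replicate 1 (0.11, 0.153), doxycycline replicate 2 (0.14, 0.0988) or doxycycline replicate 3 (0.15, 0.0844), or with low counts unfiltered (0.13, 0.0604). With the correction HHEX was higher by more (0.29, edgeR adjusted p = 5.41e-05). ALDH1A2, TRIB2, CDK6 and STAT5A, further targets of the complex, were not called, with means in DMSO and then doxycycline of 287 and 279, 87.0 and 87.2, 820 and 885, and 996 and 1055 CPM. KIT was at 0 in all samples, and NFKB1 had 6, 6 and 4 counts in DMSO and 3, 6 and 3 in doxycycline.

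TAL1 and ID proteins can keep E proteins from activating genes of developing T cells, so 17 such genes were read. Of 15 tested, 4 rose, 0 fell and 11 were not called, with a median of 0.06, a count near the 29.3% of all tested genes. In DESeq2 4 rose and 1 fell, and with the GC and length correction 3 were higher and 0 lower. HES1 gained a call with that correction (0.18, edgeR adjusted p = 0.0157). NOTCH3, a NOTCH receptor, went from 32.5, 37.1 and 35.8 CPM to 70.7, 69.2 and 66.5 CPM (log2 fold change 0.97, SE 0.060, edgeR adjusted p = 2.20e-11; 0.69 with the GC and length correction, edgeR adjusted p = 1.44e-08). NOTCH1 went from 733 ± 5.60 to 934 ± 22.0 CPM (0.35, edgeR adjusted p = 1.11e-05) and lost its call with the correction (0.06, edgeR adjusted p = 0.250). BCL11B, a T cell commitment factor, went from 166 ± 9.42 to 185 ± 3.93 CPM (0.16, edgeR adjusted p = 0.0215) and was lost with the correction (0.08, 0.173) and without DMSO replicate 2 (0.11, 0.106), doxycycline replicate 2 (0.16, 0.0524) or doxycycline replicate 3 (0.14, 0.107). RAG1, the recombinase gene, PTCRA, the pre-T cell receptor chain, and CD3E, of the receptor complex, were not called.

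**Figure D5:**
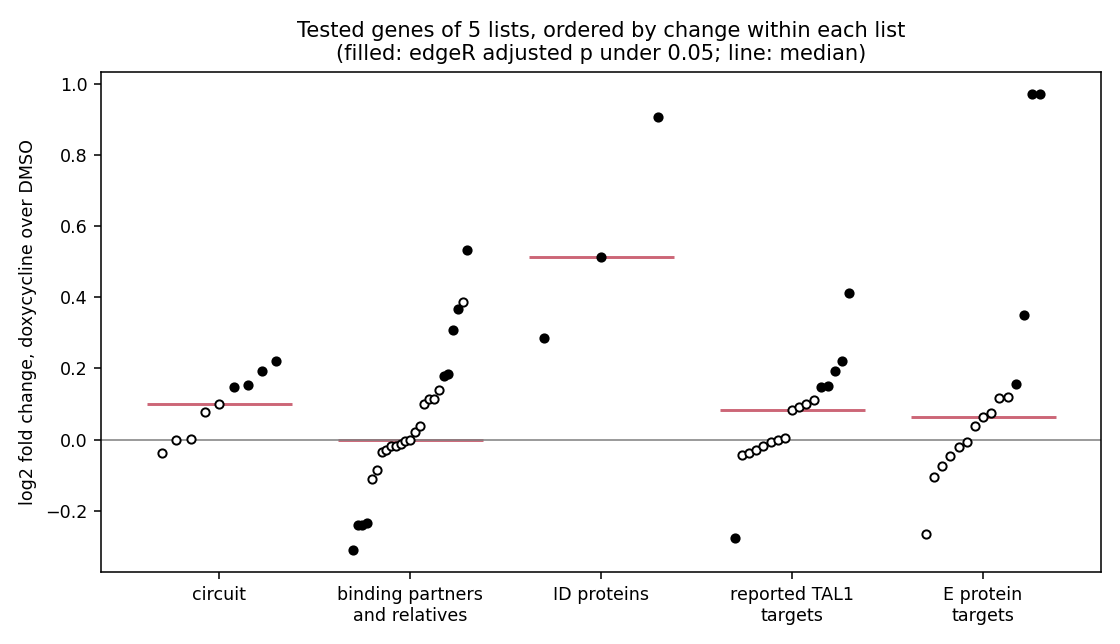
Log2 fold change, doxycycline over DMSO, of each tested gene of 5 lists, ordered by change within a list, with a red line at each list's median and filled points for an edgeR adjusted p under 0.05. The 3 ID genes are all filled and above 0, with a median of 0.51, while partners and relatives spread on both sides of a median of 0.00.

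The nearest profiles were sought for TAL1 and for ARID5B, the called circuit gene with the largest change, among 9660 genes with a mean log2 CPM of at least 3. Likeness was the mean absolute difference in log2 CPM over the 6 samples after centring each gene on its mean. Nearest to TAL1 were HUWE1 (0.0090), a ubiquitin ligase gene, PCGF3 (0.0093), of the Polycomb family, and SYNRG (0.0106), against a median distance of 0.0971 over all genes compared. None of the 3 was called. Nearest to ARID5B were TULP4 (0.0150), HIVEP3 (0.0170) and the gene named MIR3916 in the deposited table (0.0233), against a median of 0.143, and all 3 were called higher. With 6 samples in 2 groups, such likeness reflects mainly the group difference and the size of scatter.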

How the data were processed

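Total RNA was sequenced as strand-specific paired-end libraries, per the labels' protocols. The authors deposited raw read counts per gene without normalization, and a comparison table that lists p-values, a Wald score, the log2 fold change, its standard error and the mean normalized signal of each gene. STAR 2.5.2a, featureCounts, DESeq2 1.12.4 and hg19 are named per the submitters' processing notes, without roles. The annotation and strand setting of the counting are not given in the sources used here. Where a gene's exons overlap another gene, reads may therefore be shared.

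From the counts, 15492 genes passed filterByExpr (at least 99.88% of each library's counts), libraries were scaled with TMM, and doxycycline was set against DMSO in edgeR 4.0.16 (R 4.3.3) by its quasi-likelihood test, with no covariate and with Benjamini-Hochberg adjustment over all genes tested. Each SE was derived from the log2 fold change and its F statistic, and 95% intervals use the test's degrees of freedom. Steps were tested on simulated data, in which the changes put in were larger than those of the called circuit genes. That test therefore does not cover calls of their size. Exon lengths, GC content and overlaps come from GENCODE 29 (GRCh38), matched by identifier for 97.06% of tested genes, and promoters from RefSeq GRCh38.p14. The GC and length correction fits natural splines (5 degrees of freedom each) per library to genes with mean log2 CPM above 2 and enters as an offset. It removes true changes that follow GC content or length as well.

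The circuit genes and all lists, written from general knowledge, were chosen with earlier results of these data known. Genes named are the circuit, MYC, the ID genes, the 3 members with the smallest p of each other list, the 3 most abundant markers, and the nearest profiles. A few genes picked by this rule are not reported here, though they are included in the counts. Others named (STIL, LYL1, ERG, GATA2, LMO4, PRMT1, CBFA2T2, CBFA2T3, RUNX2, FLI1, SSBP4, TRAF3, HES1, HHEX, BCL11B, CD2 and those given as not called, absent or under the filter) were chosen after their values were seen. Alternatives were DESeq2 1.42.0, other scalings, no filter, left-out libraries, the correction and a replicate block.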

Additional observations from a re-analysis of the deposited data

How the results depend on the processing

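The direction of all 4 called circuit genes held in each of 15 alternatives, and RUNX1, ID1, ID2, ID3, HDAC2, EGFL7 and NOTCH3 kept their calls in all. The count of circuit genes called was 2 to 4 when 1 library was left out, 1 without both DMSO replicate 2 and doxycycline replicate 1, 2 with the GC and length correction and 2 with it and the replicate block. Upper-quartile scaling gave 2871 genes higher and 1585 lower, and library size alone 2758 and 1606, against 2137 and 2408 with TMM. Values near 0 changed sign, and the cause was not tested. LMO1 was -0.008 with DESeq2, -0.013 with no filter, -0.022 without both libraries and -0.038 to 0.041 with 1 library left out. MYB was 0.011 under upper-quartile scaling, 0.007 under library-size scaling and 0.059 with the correction (0.059 with the block). TCF3 was -0.068 with the correction, with and without the block. TCF12 was 0.046, 0.041 and 0.070 in the 3 fits first named for MYB (0.069 with the block), and -0.021 to 0.035 with 1 library left out. STIL was 0.042, 0.038 and 0.072 in those fits (0.072 with the block), and -0.033 to 0.019 with 1 library left out. Same-numbered samples did not deviate together (r = -0.0576, -0.227 and 0.0858 across 10864 genes), so the numbers are not taken as pairs. With the replicate block 4206 genes were called against 4545, and 3 circuit genes, GATA3 being lost (0.148, edgeR adjusted p = 0.0534). Depth limits LMO2, ID4, TAL2 and GATA1, whose counts lie near or under 3 a library.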

Other observations

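Oncogenes that define other groups of T-ALL were read as a list of 14 genes, to place the line among them. In DMSO, LYL1 was highest at 253 ± 16.5 CPM, followed by NKX2-1 at 57.0 ± 2.43 CPM and MEF2C at 23.7 ± 1.03 CPM. NKX2-1, a homeobox gene of thyroid and lung that is switched on in some T cell leukaemias, was 59.7 ± 2.35 CPM in doxycycline. Of the 14, 5 were tested and did not pass, HOXA10 having the lowest edgeR adjusted p at 0.178, and TLX3 and LMO3 were at 0 in all 6 samples.

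Among the 9 tested T lineage markers, CD7 and CD5 rose and CD3G fell, a count near the 29.3% called among all tested genes. CD7 went from 84.5 ± 3.23 to 118 ± 6.51 CPM (log2 fold change 0.48, edgeR adjusted p = 6.52e-07) and CD5 from 233 ± 8.48 to 274 ± 8.22 CPM (0.23, edgeR adjusted p = 9.38e-04). CD3G, of the T cell receptor complex, went from 169 ± 8.65 to 143 ± 3.21 CPM (-0.24, edgeR adjusted p = 9.20e-04) and lost its call with the GC and length correction (-0.07, edgeR adjusted p = 0.237). With the correction CD2 was called higher (0.19, edgeR adjusted p = 0.0312), so 3 of the 9 were higher and 0 lower there. Of all genes in that fit, 10.7% were called higher.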
